A study of Mus musculus with 2 samples.

Results

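The miR-290 to miR-295 cluster was followed here in exosomes of LLC cells, a mouse Lewis lung carcinoma cell line. The members are 10 mature arms, mmu-miR-290a-5p, mmu-miR-290a-3p, mmu-miR-291a-5p, mmu-miR-291a-3p, mmu-miR-292a-5p, mmu-miR-292a-3p, mmu-miR-294-5p, mmu-miR-294-3p, mmu-miR-295-5p and mmu-miR-295-3p, picked by name from the 1881 mouse miRNAs of an Agilent mouse miRNA microarray. The prefix mmu (mouse) is left out below. Exosomes are small vesicles that cells release into their culture medium. The study collected LLC supernatant, isolated exosomes by ultracentrifugation and hybridised their RNA to 2 arrays with Cy3 as the only dye, 1 array for each of 2 independent experiments. All samples thus belong to 1 group, LLC-derived exosomes from cultures in medium with exosome-free serum, with no treatment named. An array of LLC cells, of medium or of other vesicles was not analysed here. No comparison between conditions and no p-value was therefore possible, and every value below describes these 2 arrays. In vesicle RNA, fewer vesicles that carry a miRNA and fewer copies per vesicle cannot be told apart.

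The miR-290 to miR-295 cluster is the most abundant miRNA locus of mouse embryonic stem cells, in which its hairpins are cut from shared primary transcripts and its 3p arms promote rapid cell division and the maintenance of pluripotency. It is switched off in most differentiated tissues. A miRNA finds its target messenger RNAs mainly through its seed, the bases near its 5′ end. Arms with the same seed thus share many targets. The main seed of the cluster's 3p arms is also carried by some miR-302 3p arms, from the cluster of miR-302 and miR-367. Moved by 1 base, it is carried by the miR-17 family.

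The mature sequences of the members show how closely the arms are related, and they are therefore printed before the values. They were taken from RefSeq (assembly GRCm38.p6), in which 9 of the 10 members were matched, and miR-292a-3p is named only. Capitals mark the seed, bases 2 to 8 from the 5′ end.
miR-290a-5p: aCUCAAACuaugggggcacuuu
miR-291a-5p: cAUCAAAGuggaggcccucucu
miR-292a-5p: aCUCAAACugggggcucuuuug
miR-294-5p: aCUCAAAAuggaggcccuaucu
miR-295-5p: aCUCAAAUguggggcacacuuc
miR-290a-3p: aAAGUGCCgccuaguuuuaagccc
miR-291a-3p: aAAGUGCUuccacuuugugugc
miR-294-3p: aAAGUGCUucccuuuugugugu
miR-295-3p: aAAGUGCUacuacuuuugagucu
The 3p arms of miR-291a, miR-294 and miR-295 carried 1 seed, AAGUGCU, and miR-290a-3p differed from it in the last seed base, with AAGUGCC. The 5p arms of miR-290a and miR-292a shared the seed CUCAAAC. The members with a RefSeq entry were 22 to 24 bases long.

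The hairpins of the 2 members that were detected on both arrays are shown so that each arm can be seen in its precursor, with the mature arms in capitals, the 5p arm first.
Mir290a: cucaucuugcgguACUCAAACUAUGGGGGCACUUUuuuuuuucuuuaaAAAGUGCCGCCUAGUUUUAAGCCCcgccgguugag
Mir294: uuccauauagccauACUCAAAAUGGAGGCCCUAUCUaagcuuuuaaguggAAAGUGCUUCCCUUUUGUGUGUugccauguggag
In GRCm38.p6, Mir290a lies at chr7:3218626-3218708 and Mir294 at chr7:3220641-3220724, both on the plus strand. The cluster as RefSeq lists it holds 9 hairpins within 2216 bases, chr7:3218626-3220841, with 7 hairpins on the plus strand and 2 on the minus strand. Of the 9 hairpins, 7 lie inside the span of the long non-coding RNA gene D7Ertd143e, chr7:3218784-3221015. The same 7 lie inside the span of the protein-coding gene Nlrp12, chr7:3218643-3249771. Exons and introns of these genes were not used here, because the annotation at hand gives gene spans only.

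The arrays carried 4415 probes with 30 spots for each miRNA, and 393 probes (8.9%) were detected on both arrays, that is, their total signal was over 3 times its error. Intensities are fluorescence units after background subtraction, averaged over the spots of a probe and then over the probes of a miRNA, without spots marked as outliers. Negative control spots, which match no mouse RNA, had a mean of 0.57 ± 2.48 (SD over 986 spots) in replicate 1 and 0.76 ± 2.72 (SD over 995 spots) in replicate 2, and the highest was 9.45 and 9.35. The signals of different miRNAs come from different probes, which bind unequally well, so an order of signals is an order of brightness and not of amounts.

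Feature Extraction, the scanner software, called 2 of the 10 members detected on both arrays, miR-294-3p and miR-290a-3p. Over the whole array it called 11.5% of the 1881 miRNAs detected on both, 13.5% in replicate 1 and 11.9% in replicate 2. With so few members, no difference from the array as a whole was read from this count. Both detected members were 3p arms, 2 of 5, and 0 of the 5 members of the 5p side were detected. This split was not tested, and no difference between the sides was read from it. The same 2 members were called on each array taken alone. Of the 34 probes of the members, 7 were detected on both arrays, where 393 of all 4415 probes (8.9%) were. All 7 belonged to these 2 miRNAs. The calls of a miRNA and of its probes rest on the same spots, so this is not a second observation.

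**Figure D1:**
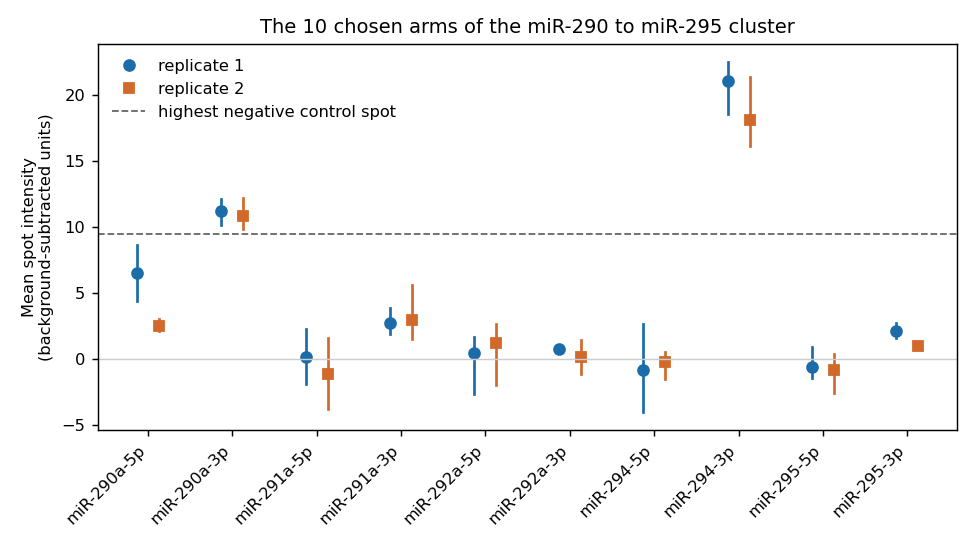
Mean spot intensity (y axis, background-subtracted fluorescence units) of the 10 members on the 2 arrays; circles stand for replicate 1, squares for replicate 2, vertical lines span the lowest to the highest probe of a miRNA, and the dashed line is the highest negative control spot of either array, 9.45. The means of miR-294-3p and miR-290a-3p lie above the line on both arrays, and those of the other 8 members below it.

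miR-294-3p, one of the arms known to promote the division of embryonic stem cells, had the highest signal among the members. Its mean intensity was 21.0 in replicate 1 and 18.1 in replicate 2 (19.5 ± 2.0, SD, n = 2). Its 3 probes gave 18.5 to 22.5 in replicate 1, and 16.1 to 21.3 in replicate 2. Both arrays thus gave nearly the same signal, and within each array its probes were spread more widely than the arrays were apart. Every spot of it that was used, 30 of 30 in replicate 1 and 29 of 29 in replicate 2, was brighter than the highest negative control spot of its array. Single spots lay between 13.3 and 26.6 in replicate 1 and between 10.1 and 22.7 in replicate 2. All 3 probes were detected on both arrays, with totals of 5.24 to 5.99 times their error in replicate 1 and 4.65 to 5.73 times in replicate 2, so none was near the threshold of 3.

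miR-290a-3p, the 3p arm of the first hairpin of the cluster, had a mean intensity of 11.2 in replicate 1 and 10.8 in replicate 2 (11.0 ± 0.28, SD, n = 2). All 4 of its probes were detected on both arrays, at 10.1 to 12.1 in replicate 1, then 9.80 to 12.2 in replicate 2. The ranges of the probes overlapped almost wholly between the experiments. Unlike those of miR-294-3p, its spots were not all apart from the controls. In replicate 1, 22 of 30 spots (73.3%) were brighter than the highest negative control spot, and in replicate 2, 23 of 29 (79.3%). Its probe totals were 3.19 to 3.73 times their error in replicate 1 and 3.05 to 3.70 times in replicate 2, just past the threshold for detection. By the stricter flag of single spots, well above background, 3 of 30 spots of miR-290a-3p passed in replicate 1 and 0 of 30 in replicate 2, against 29 and 26 of 30 for miR-294-3p. When at least 50% of a probe's spots had to pass that flag on both arrays, miR-294-3p alone of the 10 members remained, and 7.07% of all miRNAs did.

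**Figure D2:**
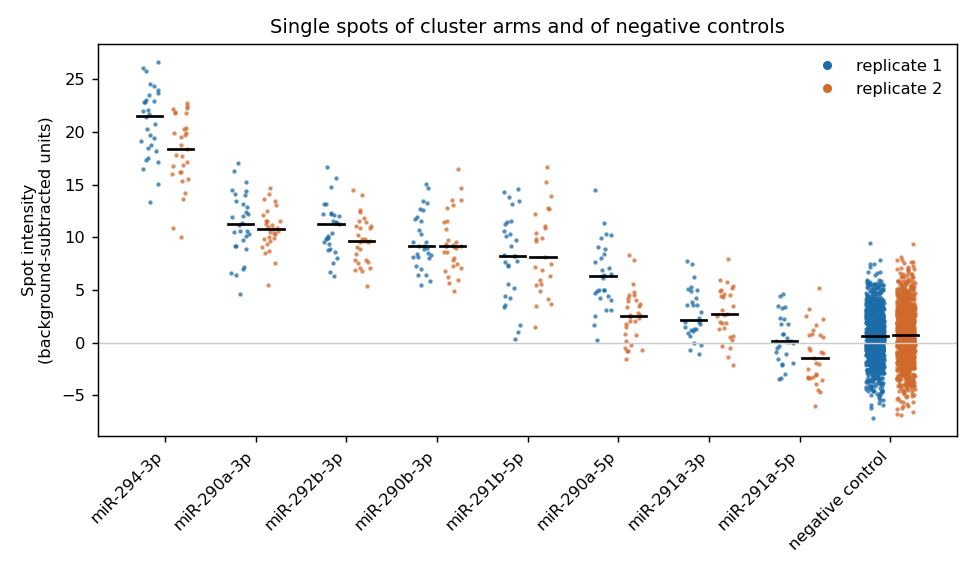
Single spots (points, y axis in background-subtracted fluorescence units) of 8 arms of the cluster and of the negative controls on each array; black bars are medians. The spots of miR-294-3p lie above all negative control spots, those of miR-290a-3p lie partly above them, and those of miR-291a-5p lie within their range.

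Both members were modest signals of the exosome profile. When all 1881 miRNAs were ordered by intensity, miR-294-3p took rank 101 in replicate 1 and 95 in replicate 2, with 5.32% and 5.00% of the miRNAs above it, and miR-290a-3p took rank 188 and 160, with 9.94% and 8.45% above. The highest miRNA of each array reached 5010 and 4510 units, and the median over the 216 miRNAs detected on both arrays was 18.7 and 16.6. For a level that can be averaged across arrays, signals were divided by the 75th percentile of each array over the 393 detected probes, 50.2 and 40.0 units, and log2 was taken, so that 0 is a signal at that percentile. The log2 level of miR-294-3p was -1.28 in replicate 1 and -1.17 in replicate 2 (-1.22 ± 0.07, SD, n = 2), and that of miR-290a-3p was -2.22 and -1.91 (-2.07 ± 0.22, SD, n = 2). By mean level they were at rank 85 and 157 of the 216, with 38.9% and 72.2% of the detected miRNAs above them. The median level of the 216 was -1.46, so miR-294-3p lay above the middle of the detected miRNAs and miR-290a-3p below it. Between the experiments the level of miR-290a-3p moved by 0.31, close to the median shift of the 216 miRNAs, 0.21 (replicate 2 minus replicate 1). The level of miR-294-3p moved by 0.11, and the median absolute difference of the 216 was 0.35. Before scaling, the intensity of miR-290a-3p was 11.2 units in replicate 1 and 10.8 in replicate 2, and the divisors were 50.2 and 40.0. The source of these shifts was not tested.

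The detected miRNAs nearest in log2 level over the 2 arrays were let-7f-1-3p (-2.21 and -1.91) and miR-7067-3p (-2.27 and -1.96) for miR-290a-3p. For miR-294-3p they were miR-7048-5p (-1.32 and -1.08) and miR-702-3p (-1.38 and -1.15). The Euclidean distances were 0.02 and 0.07 for miR-290a-3p and 0.10 and 0.10 for miR-294-3p. With 2 arrays of 1 group, likeness in level says only that the signals were alike.

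**Figure D3:**
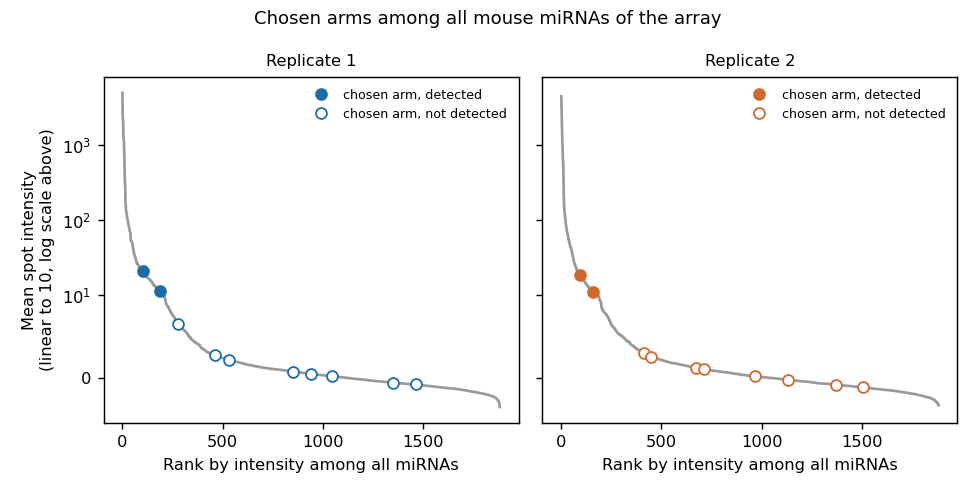
All 1881 mouse miRNAs ranked by mean spot intensity on each array (x axis, rank; y axis, intensity, linear up to 10 and logarithmic above), with the 10 members as circles, filled where detected on both arrays. miR-294-3p and miR-290a-3p sit at the foot of the steep part of the curve, and the other 8 members lie along its flat part.

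The other 8 members were not detected on either array. With that, 0 of their 27 probes passed, which is not separate from the call. Their mean intensities lay between -0.814 and 6.47 in replicate 1, and in replicate 2 between -1.15 and 2.97, against a median over all 1881 miRNAs of 0.461 and 0.225. Of their used spots, 6 of 228 in replicate 1 and 0 of 231 in replicate 2 were brighter than the highest negative control spot. Nearly all of their single spots thus lay at or below the highest control spot. A mean over many spots can still differ from the control mean, which was not tested, and the order of these members was not read.

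Of these 8, miR-290a-5p, the 5p arm of the hairpin that gives miR-290a-3p, came nearest to detection, and in 1 experiment only. Its mean intensity was 6.47 in replicate 1 and 2.53 in replicate 2 (4.50 ± 2.8, SD, n = 2). All 4 of its probes were brighter in replicate 1, from 4.37 to 8.61, than in replicate 2, from 2.14 to 3.05. The 2 sets of probe means did not overlap, but the probes of an array share 1 RNA sample and are not replicates. Its brightest probe in replicate 1 had a total of 2.75 times its error, just under the threshold of 3. In replicate 1, 5 of 29 spots (17.2%) were brighter than the highest negative control spot, and in replicate 2, 0 of 30.

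miR-291a-3p, which shares the seed of miR-294-3p, had a mean intensity of 2.70 in replicate 1 and 2.97 in replicate 2 (2.83 ± 0.19, SD, n = 2). Its 3 probes ran from 1.90 to 3.84 and from 1.52 to 5.57, and the same probe was the brightest on both arrays, at up to 1.79 times its error. It was thus a weak signal with a small gap between the experiments, and it was not detected. By a looser call, at least 50% of a probe's spots positive and significant on both arrays, miR-290a-5p and miR-291a-3p joined the 2 detected members, while 25.2% of all miRNAs passed. miR-295-3p, the other arm with this seed, had 2.15 and 1.01.

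The remaining 5 members gave signals about 0. They were miR-292a-5p with 0.462 and 1.18 in replicate 1 and replicate 2, miR-292a-3p with 0.748 and 0.158, and miR-291a-5p with 0.174 and -1.15. miR-294-5p, the partner of the brightest arm on its hairpin, had -0.814 and -0.242, and miR-295-5p had -0.600 and -0.840. Of all the hairpins of the members, Mir294 showed the plainest difference between its arms, with every used spot of the 3p arm above the controls and the mean of the 5p arm below that of the controls.

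The array also held 8 further arms of the locus that carry the names miR-290b, miR-291b, miR-292b and miR-293. Of these 8, 3 were detected on both arrays, miR-291b-5p, miR-290b-3p and miR-292b-3p, which made 5 of 18 arms of the locus in all. Over the 18 arms, 1 of 9 on the 5p side and 4 of 9 on the 3p side were detected. The share over all 1881 miRNAs was 11.5%, and neither a difference from it nor one between the sides was tested. The sequences of the 3 arms and of miR-291b-3p are given because they mirror or nearly repeat members of the group (seed in capitals, RefSeq, GRCm38.p6).
miR-291b-5p: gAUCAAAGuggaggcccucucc
miR-291b-3p: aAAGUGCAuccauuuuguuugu
miR-290b-3p: aAGUGCCCccauaguuugagua
miR-292b-3p: aAGAGCCCccaguuugaguau
miR-291b-5p and miR-291a-5p were the same at 20 of 22 bases, seed included, and differed by C1G and U22C (miR-291a-5p base first, positions counted from 1 at the 5′ end). Yet miR-291b-5p had 8.10 and 8.94 units in replicate 1 and replicate 2 (level -2.64 ± 0.45, SD, n = 2, rank 192 of 216), whereas miR-291a-5p had 0.174 and -1.15. The signal of miR-291b-5p was uneven across its 4 probes. Its 2 detected probes had 11.4 and 10.9 units in replicate 1 and 12.7 and 11.5 in replicate 2, and the other 2 had 4.25 and 5.84, then 6.21 and 5.36. The letters of the probes were not used here, so whether the probes of one arm also bind the other was not tested.

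A like pair occurs on the 3p side. miR-291a-3p and miR-294-3p were the same at 19 of 22 bases and differed by A12C, C13U and C22U (miR-291a-3p base first), and their signals were 2.70 and 2.97 units against 21.0 and 18.1. miR-291b-3p, which differs from miR-294-3p at 3 of 22 bases by U8A, C12A and G19U (miR-294-3p base first), had 2.34 and 1.53 and was not detected. Among these near-identical arms, miR-294-3p was thus the one detected, and it was so on both arrays.

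**Figure D4:**
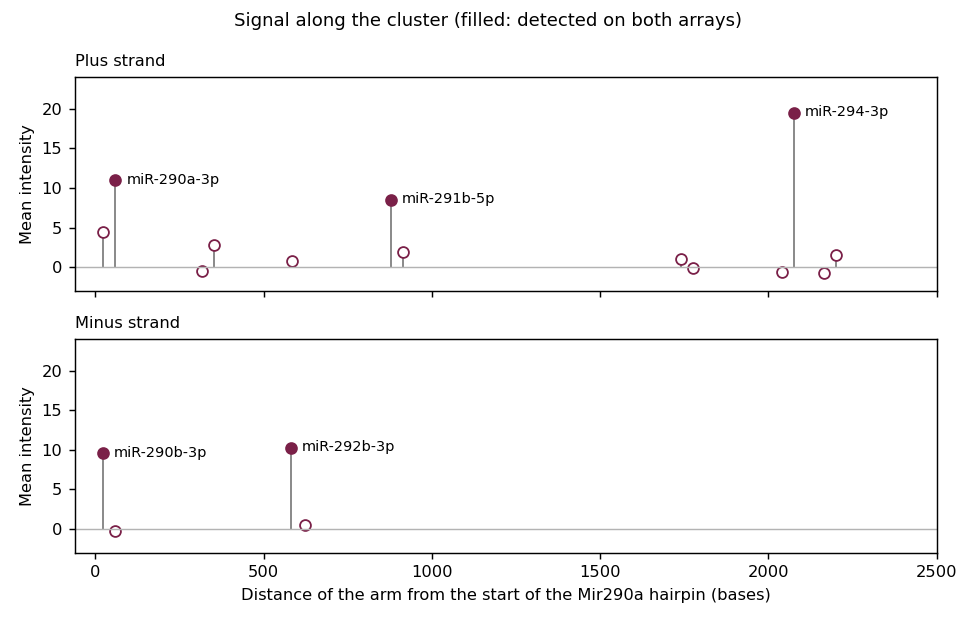
Mean intensity over the 2 arrays (y axis, background-subtracted fluorescence units) of the 17 arms with a RefSeq position, against the distance in bases from the start of the Mir290a hairpin (x axis), for the plus and the minus strand; filled circles were detected on both arrays. The 5 detected arms lie at both ends and in the middle of the cluster, on both strands.

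The miR-290b and miR-292b hairpins are annotated on the minus strand, opposite Mir290a and Mir292. miR-290b-3p is complementary to miR-290a-5p over 21 bases (chr7:3218639-3218659), and it had 9.67 units in replicate 1 and 9.52 in replicate 2, with 1 of 2 probes detected on each array. miR-292b-3p is complementary to miR-292a-5p over 19 bases (chr7:3219200-3219218), and it had 10.8 and 9.70, with 2 of 2 and 1 of 2 probes detected. Their log2 levels were -2.28 ± 0.21 and -2.16 ± 0.12 (SD, n = 2), at ranks 180 and 169 of the 216, near miR-290a-3p. On the first pair of strands the minus arm was detected and miR-290a-5p was not, with 6.47 and 2.53 units. On the second the minus arm was detected and miR-292a-5p was not, with 0.462 and 1.18. The third such pair ran the other way, since miR-290a-3p was detected and its complement over 22 bases, miR-290b-5p (chr7:3218674-3218695), had -0.275 and -0.219. The detected probes of these minus-strand arms were close to the threshold, with totals of 3.09 to 3.59 times their error, and the undetected probe of miR-290b-3p in replicate 1 stood at 2.98. The remaining arms of the locus were not detected, namely miR-292b-5p (0.0752 and 0.952 units), miR-293-5p (1.42 and 0.562) and miR-293-3p (-0.225 and 0.172).

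Arms of the locus with the same seed were set side by side, and with so few arms per seed no link between seed and detection was read. Seeds could be read for the 1608 of 1881 array miRNAs with a mature sequence in RefSeq, and miRNAs outside these were not searched. Of the 1608, 182 were detected on both arrays. Among the 1608, the seed AAGUGCU is carried by 5, miR-291a-3p, miR-294-3p, miR-295-3p, miR-302b-3p and miR-302d-3p, of which miR-294-3p alone was detected on both arrays. The seed AAGUGCC was found among them in miR-290a-3p alone, but the member miR-292a-3p, without a RefSeq entry, could not be searched. The 3 arms with the seed CUCAAAC, miR-290a-5p, miR-292a-5p and miR-293-5p, were all undetected, and so were miR-294-5p and miR-292b-5p, which share CUCAAAA. Of the pair with AUCAAAG, miR-291b-5p was detected and miR-291a-5p was not. Taking only the 6 bases AAGUGC at positions 2 to 7, 8 of the 1608 had them, 5 of these 8 from the cluster. The 2 detected were miR-290a-3p and miR-294-3p, and no difference from the 1608 was read. The median GC content was 47.6% in the 5 detected arms of the locus (40.9% to 59.1%) and 45.5% in 12 undetected ones (31.8% to 54.5%). This difference was not tested. Over the array, the detected miRNAs had a higher median GC content, 59.1% for the 182 with a sequence against 52.2% for 1426 undetected ones, and miR-294-3p lay below both with 40.9%.

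The relatives of the cluster were examined in turn. miR-302d-3p and miR-20a-5p are printed to show where the 6 shared bases AAGUGC lie, in capitals.
miR-302d-3p: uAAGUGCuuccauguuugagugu
miR-20a-5p: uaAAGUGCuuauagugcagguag
The cluster of miR-302 and miR-367, the other miRNA cluster of pluripotent cells, had 0 of its 10 arms detected, where 11.5% of all miRNAs of the array were, and no difference from the array was read from so few arms. Their intensities spanned -0.81 to 2.08 on the array of replicate 1, then -1.03 to 1.53 on that of replicate 2, with medians of 0.738 and 0.175, near those of the whole array. The 10 members of the miR-290 group had medians of 1.45 and 1.09.

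In the miR-17 relatives, miRNAs that promote cell division in many proliferating cells and tumours and carry the 6 bases at positions 3 to 8, 3 of the 5 miRNAs on the array were detected, against 11.5% over the array, which was not tested. miR-20a-5p had 26.5 and 31.5 units (level -0.79 ± 0.44, SD, n = 2, rank 65 of 216). miR-20b-5p had 7.30 and 7.16 units, and miR-106b-5p had 5.55 and 6.39, at ranks 200 and 210 of 216. Each had 1 of 2 probes detected on each array, with totals of 3.18 to 3.35 times the error, just past the threshold. The undetected probe had 4.38 and 4.06 units for miR-20b-5p and 0.4 and 1.95 for miR-106b-5p. Of the used spots, 30 of 30 and 27 of 30 of miR-20b-5p were above 0, and 23 of 30 and 24 of 29 of miR-106b-5p. The rest took the array's lowest positive scaled value before log2, so the ranks of these miRNAs rest partly on that floor. miR-17-5p, at -1.95 and -1.57, and miR-93-5p, at 2.73 and 1.60, were not detected. Detection in the group was thus uneven, as it was within the miR-290 cluster.

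**Figure D5:**
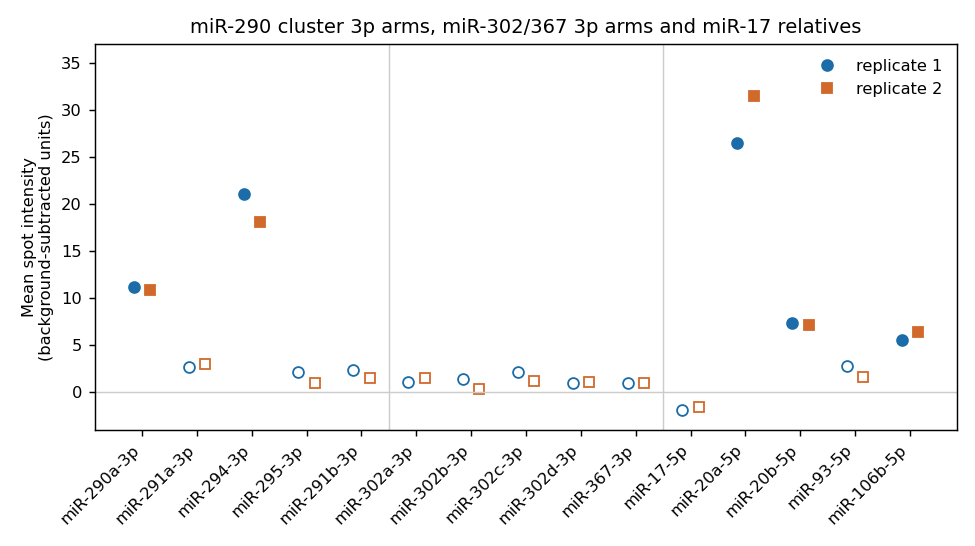
Mean spot intensity (y axis, background-subtracted fluorescence units) of 3p arms of the miR-290 cluster (left), 3p arms of the cluster of miR-302 and miR-367 (middle) and miR-17 relatives (right); circles stand for replicate 1 and squares for replicate 2, filled where the miRNA was detected on both arrays. miR-290a-3p, miR-294-3p, miR-20a-5p, miR-20b-5p and miR-106b-5p are filled, and all arms of miR-302 and miR-367 lie at or below 2.08.

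The signals of 5 miRNAs that are abundant in blood cells or serum, miR-451a, miR-144-3p, miR-486a-5p, miR-223-3p and miR-122-5p, were read on the same arrays, and their part in the result was not tested. Of these, 0 of 5 were detected on both arrays, against 11.5% of all miRNAs, with intensities of -0.541 to 6.92 in replicate 1, then 0.545 to 8.15 in replicate 2. The highest on both arrays was miR-223-3p, a miRNA of myeloid cells, with 30 of 30 spots positive and significant on each. By the looser call, at least 50% of a probe's spots positive and significant on both arrays, 2 of these 5 passed, where 25.2% of all miRNAs did. In the authors' deposited table of log2 values, whose scale and centring are unknown, miR-294-3p had 3.06 and 3.14 and miR-290a-3p had 1.83 and 2.36, and the other 8 members stood at -3.32 in both columns, the lowest value of the table.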

How the data were processed

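RNA of LLC-derived exosomes was measured on 2 mouse miRNA arrays (release 21.0 design), 1 per independent experiment, both on 1 slide and scanned in 1 session. The authors deposited spot intensities from Feature Extraction, version 10.7.1.1 per the file headers and 9.1 per the submitters' processing notes, background-subtracted and not normalized between arrays. The deposited table of log2 values, made in a way not given in the sources used here, served as an alternative and held 0 columns of other samples. The labels describe a blood RNA kit with globin removal and cRNA labelling, and the paper names a miRNeasy kit for exosomal miRNA. Which was used for the arrays is not settled.

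Control spots and outlier spots (1178 and 1134) were left out, and 0 spots were saturated. Signals were divided by the array's 75th percentile (probes detected on both arrays), scaled values not above 0 took the array's lowest positive one, log2 was taken, and spots and then probes were averaged. Values set to that floor have no order, so undetected arms are given as intensities. The levels of detected miRNAs with some spots at the floor depend partly on it. The members, the lists and the miRNAs named (all members, all arms of the locus, the 2 nearest miRNAs to each detected member, detected miRNAs of the lists) were chosen with earlier results of these data known. The computation of levels and probe detection was tested on simulated data, with signals brighter than every detected arm of the locus but miR-294-3p. The test did not cover weaker signals or Feature Extraction's own call. Alternatives covered the detection call, scaling, background correction (normexp, offset 50, limma 3.58.1, R 4.3.3), the summary of probes, the deposited table and each replicate left out. Python 3.11.15, numpy 2.4.6, pandas 2.3.3 and matplotlib 3.10.9 were used. The number of arrays limits the precision.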

Additional observations from a re-analysis of the deposited data

How the results depend on the processing

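The number of members detected on both arrays was 2 of 10, and it was 2 on each array alone. With at least 50% of a probe's spots positive and significant it was 4, with miR-290a-5p and miR-291a-3p added, where the whole array gave 25.2%. With those spots well above background it was 1, miR-294-3p, where the whole array gave 7.07%. miR-294-3p was the brightest member under every setting tried. Its rank of 85 among 216 miRNAs became 93 with normexp, 104 with the brightest probe, 90 with the sum of detected probe totals and 90 in the deposited table. When either replicate was left out it was 92 to 93, among the 223 and 253 miRNAs detected on the array that was kept. With outlier spots kept, an alternative chosen after seeing the data, it was 84. The log2 level of miR-294-3p ranged from -1.28 to 3.10 and that of miR-290a-3p from -2.22 to 2.14, with the highest values where the scale itself was another one (the percentile over all probes or the deposited table). The cause of the changes in rank was not tested. No paired analysis was possible because all samples belong to 1 group. The signal over background limits what can be said of the 8 undetected members, for which no log2 level is given and which stood at the lowest value of the deposited table.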

Other observations

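The totals per miRNA that Feature Extraction wrote at times differed from what its own detected probes add up to. For miR-294-3p (8.89 and 7.67) and miR-290a-3p (4.76 and 4.57) total and probes were equal on both arrays. For miR-290b-3p the total was 6.88 in replicate 1 and 6.71 in replicate 2, against 2.12 and 2.14 for its own detected probes, and the excess of 4.76 and 4.57 equalled the total of miR-290a-3p, the detected miRNA listed just before it. For miR-292b-3p the total in replicate 2 was 4.84 against 2.11, and the excess of 2.74 equalled the total of miR-291b-5p. These totals were not used for the levels, and the cause was not tested.

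A few bright spots marked as outliers moved single arms. With them kept, the mean intensity of miR-290b-3p in replicate 1 was 26.2 in place of 9.67, and that of miR-294-5p in replicate 2 was 2.01 in place of -0.242.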
